A study of Mus musculus with 19 samples.

Results

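The genes described here are 78 genes with the symbols of cytosolic ribosomal proteins, out of 24210 named genes in the count table. They include Rps4l, read from a non-coding RefSeq accession and listed by GENCODE vM21 as a processed transcript, and Rpl32l, which GENCODE vM21 lists as a processed pseudogene. Rps27 was also read from a non-coding RefSeq accession. They were taken by symbol, as the large subunit (Rpl) and small subunit (Rps) names, the stalk genes Rplp0, Rplp1 and Rplp2, and Rpsa, and each gene was read from the RefSeq accession with the highest mean count over the 19 libraries. Of 86 symbols that matched, 78 reached a mean of 10 counts, 45 of the large and 33 of the small subunit. The 8 that did not were Rpl10l, Rpl19, Rpl22, Rpl26, Rpl31, Rpl38, Rpl39l and Rpl3l. The members just above the minimum were Rpl35a with a mean of 10.8 counts and Rps24 with 27.9, and the symbols just below it were Rpl39l with 4.37 and Rpl22 with 3.89.

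The ribosome is assembled in the nucleolus from ribosomal RNA and proteins that nearly all enter it in equal numbers, so cells make these proteins in matched amounts. Their messages are among the most abundant and shortest of a cell, begin with a terminal oligopyrimidine tract, and are translated more when growth signals activate mTOR. In blood formation the dose of single ribosomal proteins matters: inherited loss of a copy of genes such as RPS19 or RPL5 causes Diamond-Blackfan anemia, and loss of a copy of RPS14 is part of the 5q- syndrome. Ribosomal protein genes have also left many processed pseudogenes, intron-less copies of their messages, in mammalian genomes.

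RNA came from primary, uncultured lin-Sca+cKit+ cells, a gate that takes blood stem cells and their earliest descendants, of C57BL/6 mice whose age the labels do not give. The 5 groups were untreated wild type (WT, 4 libraries), Idh2 R140Q;Flt3-ITD mice with leukemia given vehicle (IDH2-FLT3 vehicle, 3) or the mutant-IDH2 inhibitor AG-221 (4), and Tet2-/-;Flt3-ITD mice with leukemia (spelled Flt3-IDT in the labels) given vehicle (TET2-FLT3 vehicle, 4) or 5-azacytidine (5-Aza, 4). Mice received AG-221 by gavage 2 times a day for 4 to 5 weeks, at 100 mg/kg as the sole agent and 40 mg/kg when combined, and the labels give no dose per library. 5-Aza, a hypomethylating drug, was given into the peritoneum at 5 mg/kg, 5 days in each 21-day cycle, for 4 cycles; the series text also names decitabine for it. All 4 leukemic groups carry the Flt3 allele, so no comparison with WT separates it from the Idh2 or Tet2 change. The labels do not state which cells express the alleles, nor whether libraries came from separate mice, so p-values measure only the spread between libraries, which may be technical.

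Assigned counts per library ran from 9635795 to 20383132. Levels are CPM, each count scaled to library size with TMM factors, or FPKM where genes are compared with each other, since FPKM divides by length. The knocked-out gene did not check the labels: Tet2 ranged from 117 to 145 CPM in WT and from 58.7 to 156 CPM in TET2-FLT3 vehicle, and which part of it is deleted is not given in the sources used here. The sort markers could not be read either, because Ly6a was at 0 in every group and Kit at 0 in the 2 Tet2 groups. The summed level of 8 granulocyte-monocyte markers was 20503 to 110350 CPM in IDH2-FLT3 vehicle, against 2495 to 13282 in WT and 8132 to 20541 with AG-221. In bulk RNA, fewer cells of a type and less RNA per cell cannot be told apart. Libraries V3-2 and V5-2 stand apart from V3 and V5 for these genes, as described below, and medians and calls that they move by over 1.5 times or end are given without them too.

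How a ribosomal protein gene was read here went with how much of its sequence other genes hold. The first 60 coding bases of 5 members, from the GENCODE vM21 transcripts (GRCm38), are shown because they span this range. Capitals mark bases inside a 50-base stretch that also occurs in a transcript of another annotated gene, and lower case marks bases that do not.
Rps3: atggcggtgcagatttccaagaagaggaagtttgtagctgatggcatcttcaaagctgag
Rpl4: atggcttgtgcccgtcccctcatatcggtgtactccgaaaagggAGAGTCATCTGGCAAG
Rps16: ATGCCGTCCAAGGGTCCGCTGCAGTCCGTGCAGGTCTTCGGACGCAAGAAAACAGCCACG
Rpl10: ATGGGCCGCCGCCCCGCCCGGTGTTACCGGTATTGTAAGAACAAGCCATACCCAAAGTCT
Rps27a: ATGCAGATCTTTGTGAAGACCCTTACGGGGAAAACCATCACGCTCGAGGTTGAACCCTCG
Rps3, a protein near the mRNA channel of the small subunit, had no capital in this stretch, and 8.09% of the 50-base windows of its whole coding sequence were shared. Rps16, Rpl10 and Rps27a, whose product is a fusion of ubiquitin and a ribosomal protein, were shared over 100% of their windows.

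Levels per length spanned more than 1000-fold across these genes. Rpl32 and Rps9 were among the highest, with means over the 19 libraries of 5870 and 4273 FPKM. Rpl5, which binds 5S ribosomal RNA together with Rpl11, had 2.48 FPKM, and Rpl11 had 30.9. The 14 members with under 50% of windows shared had a median of 1976 FPKM, the 37 with 50% to under 100% had 328, and the 27 with 100% had 20.1. Among the fully shared members only Rpl41, Rpl13 and Rpl27a lay above 100 FPKM, at 850, 326 and 133. Across the 78 members the Spearman correlation of mean FPKM with the percent of windows shared was -0.65, a description over genes that share libraries and depth. The 2 lowest members with few shared windows were Rps4l at 5.71 FPKM and Rpl7l1 at 113. The 6 members with more than 1 RefSeq accession, Rpl30, Rpl34, Rpl35a, Rps24, Rps27 and Rps27a, had 1.66 to 8.51 FPKM, each read from 1 accession. Of these, Rpl30, Rpl34, Rpl35a and Rps24 had 72.2% to 83.1% of windows shared. The treatment of reads with several matches is not given in the sources used here. A low FPKM of a highly shared member, or of one with several accessions, is therefore not a measure of how much of its message the cells held.

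**Figure D1:**
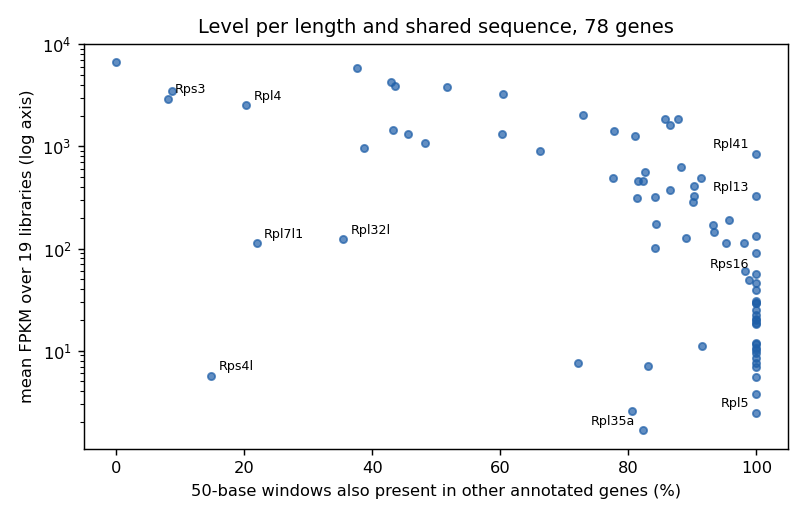
Mean FPKM over 19 libraries (log axis) of each of the 78 ribosomal protein genes (dots) against the percent of its 50-base windows that occur in other annotated genes. Windows cover the coding sequence, or the whole transcript for Rps4l and Rpl32l. Rps3 sits at 8.09% and 2917 FPKM, while the 27 genes at 100% have a median of 20.1 FPKM.

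Together the 78 genes took 4.50%, 4.18%, 4.04% and 4.74% of the counts of the WT libraries wt1 to wt4. They took 3.03%, 3.00% and 3.90% in V3, V3-2 and V9 of IDH2-FLT3 vehicle, below every WT library. With AG-221 the shares were 4.97%, 4.62%, 6.57% and 5.75% in AG1, AG12, AG13 and AG8, above all 3 vehicle libraries of that genotype. TET2-FLT3 vehicle was uneven, with 6.35% in V1, 4.78% in V19, 4.01% in V5 and 3.91% in V5-2. In 5-Aza, AZ10, AZ11 and AZ16 lay together at 4.49%, 4.53% and 4.47%, and AZ17 stood at 7.26%, the highest of all 19. The group means were 4.37% ± 0.317 (SD, n = 4) in WT, 3.31% ± 0.509 (SD, n = 3) in IDH2-FLT3 vehicle, 5.48% ± 0.865 (SD, n = 4) with AG-221, 4.76% ± 1.13 (SD, n = 4) in TET2-FLT3 vehicle and 5.19% ± 1.38 (SD, n = 4) with 5-Aza. These sums are descriptions, with no test.

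The libraries also differed gene by gene. Relative to each gene's own mean log2 CPM, the median member stood at 0.89 in V1, 0.73 in AZ17 and 0.60 in AG13, where 62, 71 and 73 of the 78 members were above their own mean. It stood at -0.65 in V3-2, -0.46 in V3 and -0.45 in V5-2, with 15, 11 and 18 members above. The WT libraries were close together at -0.10, -0.19, -0.21 and -0.16. Short accessions as a whole, the members among them, moved alike. The median of all tested accessions under 1000 bases was 0.53 in V1, 0.52 in AG13, 0.39 in AZ17 and -0.75 in both V3-2 and V5-2.

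**Figure D2:**
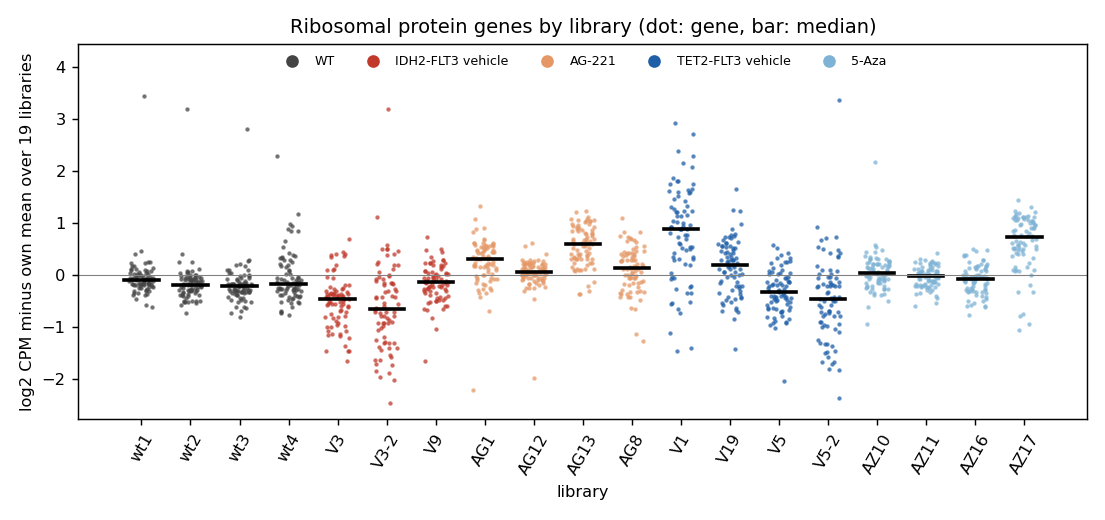
Log2 CPM of each ribosomal protein gene (dots) minus its own mean over 19 libraries, by library, with the median as a bar and groups by colour. Medians reach 0.89 in V1 and 0.73 in AZ17 and fall to -0.65 in V3-2; the high dots in the WT libraries are Rps4l and those in V3-2 and V5-2 are Rps16.

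Most members are short. Member accessions ran from 327 to 5134 bases, and 62 of the 78 were under 1000 bases. The genes whose CPM followed the summed level of the members most closely over the 19 libraries were Srp14, a signal recognition particle protein, and Chchd1, a mitochondrial ribosome protein, both at a Spearman correlation of 0.98, then Selenok, Eloc and Immp1l. Their accessions measured 595 to 1018 bases, and none of the 5 belongs to the cytosolic ribosome.

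Not all members moved with the rest. Among the 54 members of 20 CPM or more, the median correlation of a member with the others over the 19 libraries had a median of 0.68. It was highest for Rps15a at 0.82 and Rpl22l1 at 0.81, and lowest for Rpl7a at -0.34, Rpl10a at -0.18 and Rpl6 at -0.12. Rpl7a, a large subunit protein, had 43.1 and 42.7 CPM in V1 and V19, where most members were high, and 152 and 191 CPM in V5 and V5-2, where most were low.

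The libraries V3-2 and V5-2 differed from V3 and V5 in the same members by nearly the same factors, although the pairs belong to different genotypes. Rps16, a small subunit protein, had 8.26 CPM in V3 and 174 in V3-2, and 8.91 in V5 and 198 in V5-2. It lay between 10.8 and 23.3 CPM in the other 15 libraries, so only the 2 libraries with the -2 ending were high. The log2 ratio of the -2 library to its partner (CPM plus 0.1) was 4.38 in the first pair and 4.46 in the second.
Rps29, Rps2, Rps27a, Rps15 and Rpl10a were also higher by more than 1 on the log2 scale in both -2 libraries, as single-library values with no test. Rpl37a, a zinc-binding large subunit protein, went the other way, with 179 CPM in V3 against 41.9 in V3-2 and 189 in V5 against 45.1 in V5-2. Rpl14, Rps27l, Rps18, Rpsa, Rpl32, Rpl37, Rps14 and Rps19 were also lower by more than 1 in both. The ratio had the same sign in both pairs for 73 of 78 members, with a Spearman correlation of 0.94 over the members and 0.91 over 9359 accessions of 2 CPM or more. The ratios went little with shared windows (Spearman correlations of 0.20 and 0.17 over 78 members). The labels do not say what the ending marks.

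**Figure D3:**
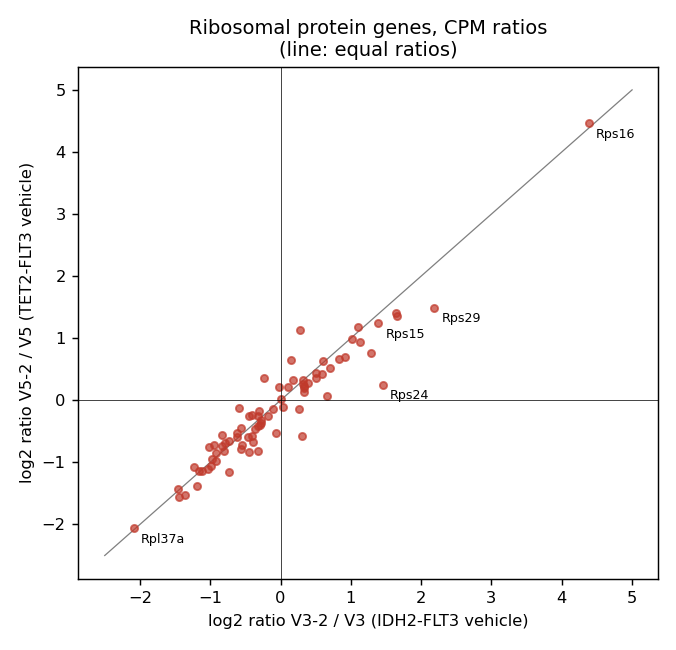
Log2 ratio of CPM in V5-2 to V5 (vertical) against V3-2 to V3 (horizontal) for each ribosomal protein gene (dots), with a line of equal ratios. Most genes lie near the line, from Rpl37a at about -2.09 and -2.06 to Rps16 at 4.38 and 4.46.

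Between IDH2-FLT3 vehicle and WT, the members were mostly lower but 1 passed the test. Rps4l fell, none rose, and 59 of 78 had a negative log2 fold change, with a median of -0.24 against 0.02 for all 11830 accessions tested (edgeR quasi-likelihood test, Benjamini-Hochberg adjusted p under 0.05). Of all accessions 20.5% were called, against 1.28% of the members. The groups did not overlap for 18 members, 14 lower and 4 higher in IDH2-FLT3 vehicle, beside 37.1% of all accessions in either direction. The 4 higher ones were the stalk base Rplp0 and the large subunit genes Rpl6, Rpl7a and Rpl8. Without V3-2 and V5-2 the median was -0.17. With the trend of counts against length removed from each library, the members' median turned to 0.18, beside 0.10 for all accessions. Of the members 51 were then positive, so their direction depends on that step.

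Rps4l was the member with the largest differences between groups. It was read from a non-coding accession and resembles Rps4x, whose product is a small subunit protein. The aligned starts are shown as an example of how alike the pair is, with capitals at the bases that differ; over the 778 aligned bases 81.2% were identical.
Rps4x: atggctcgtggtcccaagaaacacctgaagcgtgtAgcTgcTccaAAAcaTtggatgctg
Rps4l: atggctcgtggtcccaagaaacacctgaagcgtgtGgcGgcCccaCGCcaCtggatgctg
Rps4l (NR_003634) had 24.8, 20.7, 15.9 and 10.8 CPM in wt1 to wt4, and 0.337, 0.385 and 0.241 CPM in V3, V3-2 and V9. All 3 vehicle libraries were far below the lowest WT library. AG1, AG12, AG13 and AG8 had 0, 0.0842, 1.37 and 1.23 CPM. V1, V19, V5 and V5-2 had 3.95, 0.96, 0.0675 and 0.164 CPM, so both groups stayed below WT with no overlap. The 5-Aza libraries AZ10, AZ11, AZ16 and AZ17 had 9.95, 1.54, 1.06 and 1.53 CPM, of which AZ10 came close to wt4.
In the edgeR quasi-likelihood test over all accessions, Rps4l fell by 5.75 ± 1.30 (log2, SE) in IDH2-FLT3 vehicle (adjusted p = 0.00444), by 3.93 ± 1.04 in TET2-FLT3 vehicle (adjusted p = 0.0217) and by 4.72 ± 1.08 with AG-221 (adjusted p = 0.0171), each against the same WT libraries. The second call ended without wt1 (adjusted p = 0.0513) and the third without AG12 (adjusted p = 0.0628). Rps4x, by contrast, ranged from 207 to 223 CPM in WT and from 180 to 408 CPM elsewhere. Summed B cell markers, 8 genes, were also higher in WT, at 407 to 462 CPM against 47.5 to 143 CPM in the leukemic groups, and 6 megakaryocyte markers at 253 to 308 against 43.3 to 233 CPM; their part in the Rps4l difference was not tested.

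The named stalk and paralog genes gave values in both directions between IDH2-FLT3 vehicle and WT that did not pass. On the log2 scale Rpl22l1 was at -0.56, Rps27l at -0.24, Rplp1 at -0.22, Rplp2 at -0.007 and Rpl36al at 0.10. Rplp0, the base of the stalk that recruits translation factors, had 1447, 1563, 1163 and 1086 CPM in WT and 2299, 1859 and 2022 CPM in V3, V3-2 and V9. The groups did not overlap, and the log2 fold change was 0.65 ± 0.30 (SE; edgeR adjusted p = 0.13). Rpl7l1, a paralog of Rpl7, had 228, 245, 175 and 167 CPM in WT and 460, 226 and 362 CPM in the vehicle libraries, a log2 fold change of 0.78 ± 0.33 (edgeR adjusted p = 0.099). V3-2 overlapped WT there. Rps24, which is needed for small subunit RNA processing, had 2.14, 2.64, 2.39 and 4.83 CPM in WT and 0.253, 0.865 and 1.92 CPM in the vehicle libraries (-1.56 ± 0.60, edgeR adjusted p = 0.0708), at counts near the minimum.

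Between TET2-FLT3 vehicle and WT, Rpl15 rose and Rps4l fell, and 60 of 78 members had a positive log2 fold change. The median was 0.36, against 0.07 for all accessions, of which 10.1% were called against 2.56% of the members. The members' median was 0.07 without V1 and 0.57 without V5-2. With the length trend removed it was 0.33, beside 0.12 for all accessions. Rpl15 (NM_025586), a large subunit protein and a Diamond-Blackfan anemia gene, had 120, 107, 101 and 109 CPM in WT and 365, 225, 198 and 103 CPM in V1, V19, V5 and V5-2. Of these 4, V5-2 lay within the WT range. Its log2 fold change was 1.03 ± 0.32 (SE; edgeR adjusted p = 0.0449), and the call held in 1 of the 8 fits that left out a library, with edgeR adjusted p from 0.0098 without V5-2 to 0.167 without V1. All windows of its 612 coding bases are shared with other genes, and the rest of its 1841 bases was not examined.
Only Rps4l and Rpl5 were lower in every TET2-FLT3 vehicle library than in every WT library, and no member was higher in every one, where 11.5% and 6.98% of all accessions were. Without V3-2 and V5-2, 13 members rose and 1 fell, but the share of all accessions called in that fit is not given here.

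The spread within TET2-FLT3 vehicle was wide for Rplp1, Rpl11 and Rpsa, the laminin receptor homolog, but not for Rpl5, at 3.82, 4.03, 3.17 and 4.10 CPM in V1, V19, V5 and V5-2. Rplp1, an acidic stalk protein, had 1298, 1100, 1266 and 1073 CPM in WT and 4998, 2097, 1021 and 1241 CPM in V1, V19, V5 and V5-2, a log2 fold change of 0.98 ± 0.39 (edgeR adjusted p = 0.107). Rpl11, which with Rpl5 can bind Mdm2 and so activate p53, had 13.1, 13.1, 18.1 and 10.7 CPM in WT and 83.2, 37.4, 8.64 and 7.83 CPM in the vehicle libraries (1.31 ± 0.55, edgeR adjusted p = 0.128). Rpsa had 74.7, 72.9, 68.4 and 56.2 CPM in WT and 388, 155, 54.4 and 25.9 CPM in the vehicle libraries (1.19 ± 0.53, edgeR adjusted p = 0.149). In all 3 genes V1 and V19 lay above WT, while V5 lay below it, as did V5-2 for Rpl11 and Rpsa.

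AG-221 against IDH2-FLT3 vehicle gave the largest median of the members among the comparisons of 2 groups. Of the 78, 68 had a positive log2 fold change, with a median of 0.74 against 0.00 for all accessions, but only Rpl22l1 and Rpl36 rose and none fell. That is 2.56% of the members, beside 9.68% of all accessions called. At an unadjusted p under 0.05, 25 members were higher and 1 lower. For unadjusted counts, here and below, no share of all accessions is given, so they are not read as a result about the members. The AG-221 libraries were all above the vehicle libraries for 34 members, 43.6%, against 13.0% of all accessions and 32.8% of the 1244 accessions under 1000 bases. Other short accessions shifted too: the median was 0.72 over the 1182 accessions under 1000 bases that are not members, beside 0.83 for the 62 members of that length, and -0.15 over the 2950 accessions of 4000 bases or more. The 16 members of 1000 bases or more had a median of 0.55, above the 0.28 of all accessions of 1000 to under 1500 bases and the 0.02 of those of 1500 to under 2000. With the length trend removed, the members' median was -0.04, as was that of all accessions, 33 of 78 members were positive and none was called. Of the 8 granulocyte-monocyte markers 5 fell and 0 rose between the same groups, and their part in the members' shift was not tested.

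**Figure D4:**
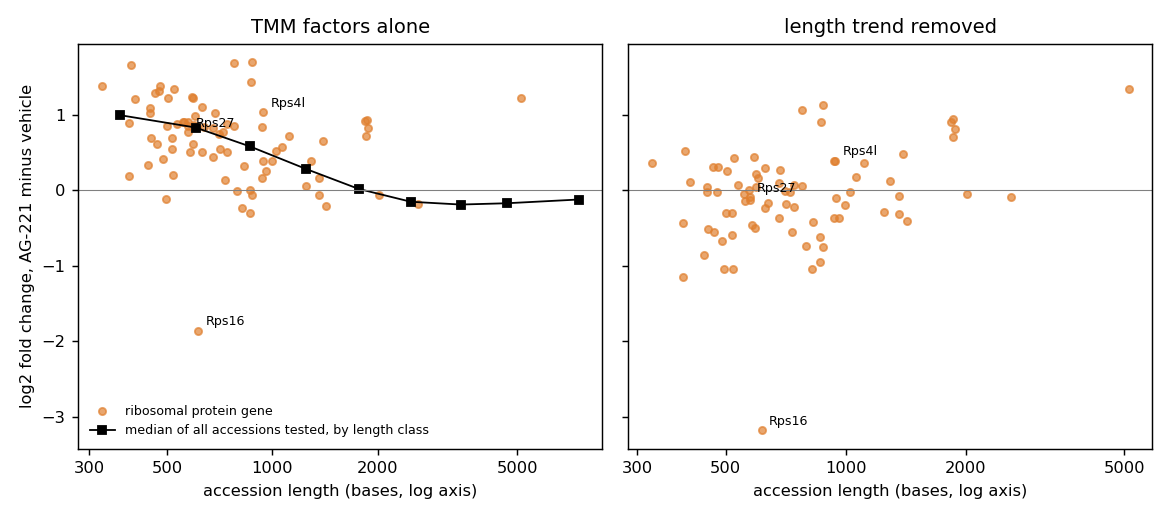
Log2 fold change of each ribosomal protein gene (dots) between AG-221 and IDH2-FLT3 vehicle against accession length (log axis), with TMM factors alone (left) and with the length trend removed (right); black squares are medians of all accessions tested by length class. The members' median goes from 0.74 to -0.04; the lowest dot is Rps16, which is high in V3-2.

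Rpl22l1 (NM_026517), the paralog of Rpl22, had 142, 107 and 175 CPM in V3, V3-2 and V9 and 374, 283, 521 and 299 CPM in AG1, AG12, AG13 and AG8. The groups did not overlap, and WT lay between them at 214, 193, 188 and 237 CPM. The log2 fold change was 1.38 ± 0.41 (SE; edgeR adjusted p = 0.0399). Rpl36 (NM_018730), a large subunit protein, had 26.4, 17.2 and 33.8 CPM with vehicle and 49.0, 49.8, 90.0 and 50.4 CPM with AG-221, a log2 fold change of 1.21 ± 0.38 (SE; edgeR adjusted p = 0.0466). AG13 was the highest of these 7 libraries for both genes.
Each call held in 1 of the 7 fits that left out a library, with adjusted p up to 0.181 for Rpl22l1 and 0.218 for Rpl36. Both calls ended with the length trend removed (adjusted p = 0.231 and 0.774), with the 2 groups fitted alone, and without V3-2 and V5-2.

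**Figure D5:**
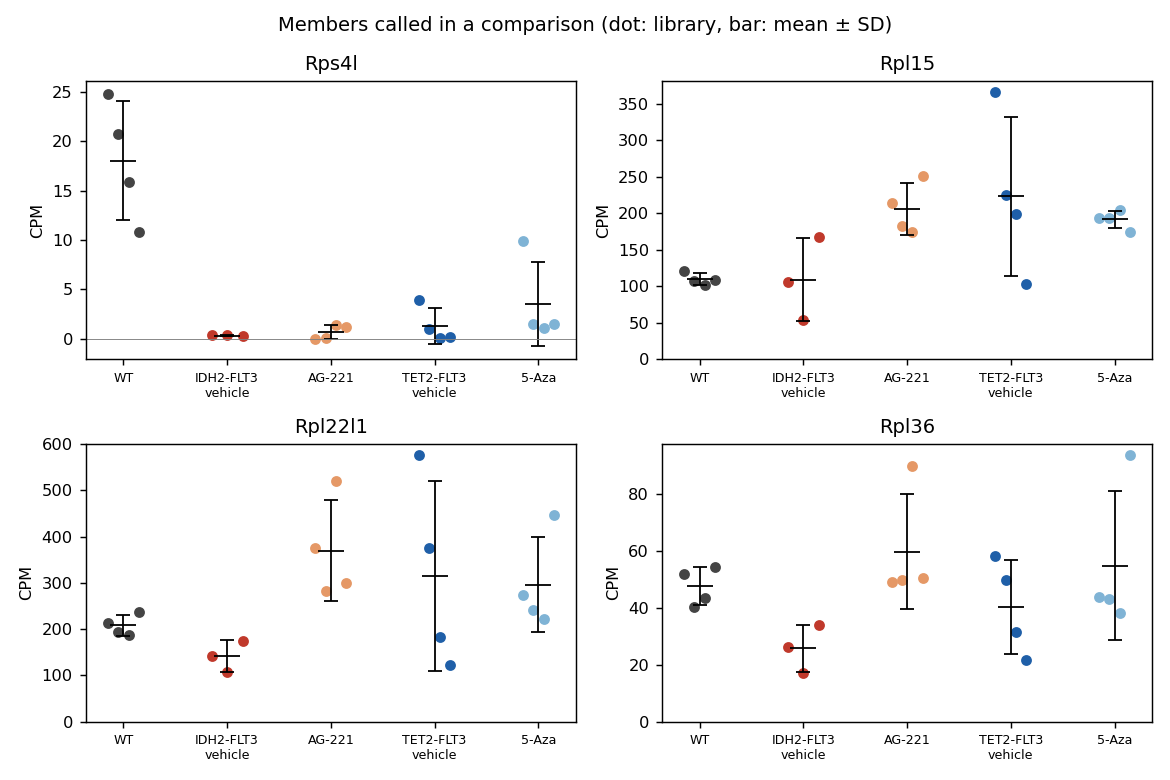
CPM of the 4 members called in any comparison, by group, with libraries as dots and mean ± SD as bars. Rps4l is at 10.8 to 24.8 CPM in WT and at most 9.95 CPM elsewhere, and Rpl22l1 and Rpl36 are lowest in IDH2-FLT3 vehicle.

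The members tied to inherited or acquired marrow failure showed the same lean. Rps19, a small subunit protein, had 566, 278 and 622 CPM with vehicle and 929, 870, 1447 and 952 CPM with AG-221 (1.10 ± 0.43, edgeR adjusted p = 0.0979). Rps14 had 1888, 871 and 2244 CPM with vehicle and 2054, 2483, 3940 and 3635 CPM with AG-221 (0.86 ± 0.41, edgeR adjusted p = 0.167), so AG1 overlapped V9. Of 17 listed Diamond-Blackfan anemia genes 16 are members, and 15 of the 16 had a positive log2 fold change with a median of 0.89, none of them called. Among all 78 members 68 were positive, with a median of 0.74. Rpl5 was the negative one (-0.06 ± 0.36, edgeR adjusted p = 0.924). With the length trend removed, Rps19 was at 0.29, Rps14 at 0.05, Rpl11 at 0.22, Rpl5 at -0.04 and Rps24 at 1.14.
Rpl41, the shortest ribosomal protein, had 248, 148 and 333 CPM with vehicle and 445, 361, 705 and 473.8 CPM with AG-221 (1.03 ± 0.45, edgeR adjusted p = 0.128). Rps27l, a paralog of Rps27 that p53 activates, had 291, 107 and 418 CPM with vehicle and 664, 467, 1005 and 524 CPM with AG-221 (1.29 ± 0.56, edgeR adjusted p = 0.131). In both genes every AG-221 library was above every vehicle library. With the length trend removed, Rpl41 was at -0.02 and Rps27l at 0.31. Rpl11 had 7.08, 8.51 and 8.5 CPM with vehicle and 28.1, 13.7, 23.6 and 9.70 CPM with AG-221, again without overlap (1.22 ± 0.60, edgeR adjusted p = 0.179). Rps24 had 0.253, 0.865 and 1.92 CPM with vehicle and 2.21, 3.12, 3.32 and 4.54 CPM with AG-221 (1.70 ± 0.60, edgeR adjusted p = 0.074).

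5-Aza against TET2-FLT3 vehicle called no member in the edgeR test, beside 1.88% of all accessions. At an unadjusted p under 0.05 there was 1 member higher and 1 lower, and DESeq2 called 0. The median was -0.08, with 36 members positive, 0.28 without V1 and -0.22 without V5-2. Rps16 had a log2 fold change of -1.95 ± 0.84 (edgeR adjusted p = 0.332), and 0.012 without V5-2. Rpl7 had a log2 fold change of 0.65 ± 0.34 (edgeR adjusted p = 0.447).

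The treated groups were compared with the same WT libraries. With AG-221, 73 of 78 members had a positive log2 fold change against WT and a median of 0.46. With the length trend removed the median was 0.11, beside 0.04 for all accessions. None rose and Rps4l fell, beside 2.71% of all accessions called. For 20 members (25.6%) the AG-221 libraries were all above WT, against 6.98% of all accessions and 19.1% of those under 1000 bases. Rpl15 had 214, 182, 175 and 252 CPM with AG-221, above the 101 to 120 CPM of WT, and did not pass (0.91 ± 0.32, edgeR adjusted p = 0.16). Rpl36al, a paralog of Rpl36a, had 206, 169, 232 and 166 CPM against 123, 124, 106 and 91.9 CPM in WT (0.80 ± 0.33, edgeR adjusted p = 0.277).

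With 5-Aza, 67 members had a positive log2 fold change against WT and a median of 0.37. With the length trend removed it was 0.18, beside 0 for all accessions. No member was called in the edgeR test, beside 1.72% of all accessions. At an unadjusted p under 0.05, 7 members were higher and 4 lower, with no share of all accessions beside them, and DESeq2 called 0. The 5-Aza libraries were all above WT for 16 members (20.5%) and all below for 3, against 11.6% and 13.4% of all accessions; of those under 1000 bases 17.4% were all above. Rpl36al had 173, 163, 155 and 355 CPM with 5-Aza, with AZ17 far above the other 3 libraries and all 4 above WT (0.93 ± 0.33, edgeR adjusted p = 0.173). Rpl29 had 280, 265, 261 and 491 CPM with 5-Aza and 196, 188, 186 and 176 CPM in WT (0.80 ± 0.29, edgeR adjusted p = 0.178). Rpl5 went the other way, with 5.67, 4.98, 4.21 and 9.11 CPM in WT and 2.91, 3.56, 4.55 and 2.53 CPM with 5-Aza (-0.82 ± 0.34, edgeR adjusted p = 0.232), where AZ16 overlapped wt3.

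IDH2-FLT3 vehicle against TET2-FLT3 vehicle had a median of -0.59, with 62 of 78 members negative, and a median of -0.27 without V1. No member was called in the edgeR test, beside 4.28% of all accessions. DESeq2 called 12, and at an unadjusted p under 0.05, 22 were lower and 1 higher. The shares of all accessions for these counts are not given here. Rpl13 had 67.5, 51.3 and 118 CPM in IDH2-FLT3 vehicle and 1414, 586, 105 and 65.4 CPM in TET2-FLT3 vehicle (-2.78 ± 0.80, edgeR adjusted p = 0.051). V1 and V19 were high and V5 and V5-2 lay among the IDH2-FLT3 libraries. Rpl39 followed the same pattern, with 222, 150 and 326 CPM against 3242, 1154, 267 and 155 CPM (-2.37 ± 0.73, edgeR adjusted p = 0.0677), while for Rpl11 (-2.08 ± 0.62, edgeR adjusted p = 0.0612) V5, at 8.64 CPM, was just above all 3 IDH2-FLT3 libraries. Without V5-2, 21 members were called lower, again with no share of all accessions beside the count. The members' median was -0.05 with the length trend removed, beside -0.0004 for all accessions.

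The responses to the 2 drugs were compared as AG-221 minus its vehicle less 5-Aza minus its vehicle. The members' median was 0.74 with 64 positive, and 0.40 without V1. With the length trend removed it was 0.04, beside 0.03 for all accessions. No member passed the edgeR test, beside 0.228% of all accessions. At an unadjusted p under 0.05, 16 members were higher and 0 lower, and DESeq2 called 1. No share of all accessions is given for these counts. The smallest p values belonged to Rps24 (2.53 ± 0.81, edgeR adjusted p = 0.162), Rpl13 (2.78 ± 1.01, edgeR adjusted p = 0.208) and Rpl22l1 (1.47 ± 0.54, edgeR adjusted p = 0.216).

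Most of the 57 tested ribosome biogenesis genes were not called. Between IDH2-FLT3 vehicle and WT 10 rose (17.5%, beside 10.1% of all accessions) and none fell, with a median of 0.41, against 0.02 for all accessions. With AG-221 6 fell (10.5%, beside 5.29% of all accessions) and none rose, with a median of -0.31, against -0.0002 for all accessions. The medians of this list were not taken with the length trend removed. These comparisons share the vehicle libraries. Heatr1, a factor for ribosomal RNA transcription and processing, had 89.7 ± 12.2 CPM (SD, n = 4) in WT, 174 ± 48.5 (SD, n = 3) with vehicle and 84.8 ± 17.1 (SD, n = 4) with AG-221. It rose by 0.96 ± 0.26 (log2, SE; edgeR adjusted p = 0.013) and fell by 1.04 ± 0.26 with the drug (edgeR adjusted p = 0.0214). Without V3-2 neither call held (edgeR adjusted p = 0.091 and 0.135), and the second also ended without V3 or AG13. The RNA methyltransferase Nop2 (0.99 ± 0.27, edgeR adjusted p = 0.0138) and the RNA acetyltransferase Nat10 (0.84 ± 0.23, edgeR adjusted p = 0.0164) rose against WT, and their calls ended without V3 and without wt3 or V3-2. Tsr1 and Rrp12, subunit maturation factors, fell with AG-221 by 1.13 ± 0.31 (edgeR adjusted p = 0.0293) and 1.13 ± 0.32 (edgeR adjusted p = 0.0324). Each was called in 2 of 7 fits that left out a library, and neither without V3 or without V3-2. In TET2-FLT3 vehicle against WT and 5-Aza against vehicle none of the 57 was called. The list leaned up in TET2-FLT3 vehicle too, with a median of 0.34 against 0.07 for all accessions. In each vehicle group against WT, 50 of the 57 had a positive log2 fold change. For 5-Aza against vehicle the median was -0.05, as for all accessions.

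Most translation factors and other messages with an oligopyrimidine start were not called, with 34 of 40 tested. In each vehicle group against WT, 29 of the 34 had a positive log2 fold change. The medians were 0.40 in IDH2-FLT3 vehicle and 0.46 in TET2-FLT3 vehicle, against 0.02 and 0.07 for all accessions. They were not taken with the length trend removed. Between IDH2-FLT3 vehicle and WT 6 rose and 1 fell, and between TET2-FLT3 vehicle and WT 3 rose and 1 fell. These are 20.6% and 11.8% of the list, near the 20.5% and 10.1% of all accessions called. The one that fell in both was Naca, a chaperone at the ribosome's exit, at 31.5 ± 9.87 CPM (SD, n = 4) in WT, 12.1 ± 2.48 (SD, n = 3) in IDH2-FLT3 vehicle and 8.08 ± 4.71 (SD, n = 4) in TET2-FLT3 vehicle. It fell by 1.38 ± 0.41 (log2, SE; edgeR adjusted p = 0.021) and by 1.96 ± 0.38 (edgeR adjusted p = 0.00303), and the first call ended without wt4, V3 or V3-2. The elongation factors Eef1a1 (0.94 ± 0.29, edgeR adjusted p = 0.043) and Eef1g (0.74 ± 0.23, edgeR adjusted p = 0.047) rose in TET2-FLT3 vehicle; both calls ended without any 1 of the WT libraries or without V1, and that of Eef1g also without V19 or V5. Eif3l (1.0 ± 0.29, edgeR adjusted p = 0.0184) and Eif4g2 (2.31 ± 0.72, edgeR adjusted p = 0.0289) rose in IDH2-FLT3 vehicle, called in 4 and 2 of 7 fits that left out a library, and Eif4g2 not without V3-2. Vim, an intermediate filament gene on the list for its message, rose there by 1.37 ± 0.27 (edgeR adjusted p = 0.00163) and fell with AG-221 by 1.08 ± 0.27 (edgeR adjusted p = 0.0214), the latter not called without V3 or V3-2.
None of 12 RNA polymerase I genes, 13 growth regulators, 73 mitochondrial ribosomal protein genes and 4 ribosomal protein pseudogenes (a list without Rps4l and Rpl32l) was called in either vehicle group against WT or in either drug group against its vehicle. The mitochondrial ribosomal protein genes, also mostly short, had a median of 0.33 for AG-221 against vehicle.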

How the data were processed

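Libraries of sorted cells' poly(A) RNA used the SMARTer Ultra Low Input kit, per the labels' protocols. Per the submitters' processing notes, the authors used STAR 2.4.0f1, featureCounts of Subread 1.4.5-p1 and genome build mm9; read length and the handling of reads with several matches are not given in the sources used here. The deposited tables hold raw counts and FPKM per RefSeq accession (33862); 189 accessions without a name held 3.47% of counts. Each column's group was read from its header, matched to a title in the labels.

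The test was that of edgeR 4.0.16 (R 4.3.3) on the deposited counts: filterByExpr kept 11830 accessions, all 78 members among them; TMM factors (0.761 to 1.22); a quasi-likelihood model with a mean for each of 5 groups over 19 libraries (14 residual degrees of freedom, common dispersion 0.184); Benjamini-Hochberg adjustment over all accessions, threshold 0.05. Scripts were tested on simulated data. Length came from counts and FPKM, and its trend was removed per library as an offset. Windows were taken from the coding sequence of each member, or the whole transcript of Rps4l and Rpl32l. Shared ones were counted in GENCODE vM21 transcripts. Alternatives were RLE factors, TMM factors without the members, 2 other filters, the compared groups alone, DESeq2 1.42.0, limma 3.58.1 on log2(FPKM + 1) or log2(FPKM + 0.1) of the deposited FPKM, and libraries left out or added together. Each count is of reads, not molecules. Genes were named by fixed roles and, per comparison, the 3 smallest p values (or up to 6 called members of each direction); the fixed-role genes given a fold change were picked after their values were seen. Results of 2 members are not reported here. Members and lists were chosen with earlier results of these data known.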

Additional observations from a re-analysis of the deposited data

Results flagged for a closer look

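The summed share and the named members gave 116 sets of values in groups of 4 libraries. In 14 sets 1 library lay further from the rest than Dixon's 95% critical value allows. Chance gives about 1 in 20 for a single set of normal values. These sets share libraries and many members move together, so the count does not measure an excess over chance. AZ17 of the 5-Aza group accounts for most of the flags. Its members took 7.26% of counts, and it was highest for Rps19 (1459 CPM), Rpl13a (1356 CPM), Rpl41 (694.5 CPM), Rpl29 (491 CPM), Rpl36al (355 CPM) and Rpl36 (93.8 CPM). Rplp2, an acidic stalk gene, was lowest there, at 202 CPM. AG13 of the AG-221 group was highest for Rps19 (1447 CPM) and Rpl36 (90.0 CPM). V5-2 stood apart for Rps16 (198 CPM), AZ10 for Rps4l (9.95 CPM), and V1 and wt4 for Rps27 (5.45 and 6.12 CPM).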

How the results depend on the processing

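Counts of called ribosomal protein genes were small and moved with the processing. The shares of all accessions called under these settings are not given, so the counts do not show whether the members stood out. The cause was not tested beyond what each setting's construction shows. With the length trend removed, 4 were called for IDH2-FLT3 vehicle against WT (1 in the report), 4 for TET2-FLT3 vehicle against WT (2) and 0 between AG-221 and its vehicle (2). With the compared groups alone the counts were 4, 1 and 0 in that order, 5 for AG-221 against WT (1) and 9 for 5-Aza against WT (0). DESeq2 called 2 for IDH2-FLT3 vehicle against WT, 7 for AG-221 against vehicle, 12 for IDH2-FLT3 vehicle against TET2-FLT3 vehicle (0) and 1 for the difference between drug responses (0). With limma on log2(FPKM + 1) the counts were 4 and 1 for the vehicle groups against WT, 9 between AG-221 and its vehicle and 1 between 5-Aza and WT; on log2(FPKM + 0.1) they were 5, 1 and 12, and 1 for the vehicle groups against each other. RLE factors gave 1 for TET2-FLT3 vehicle against WT and 1 between the vehicle groups; without a filter 2 were called for IDH2-FLT3 vehicle against WT and 6 between the vehicle groups, where a stricter filter gave 1. Without V3-2 and V5-2 the counts were 2 and 14 for the vehicle groups against WT, 0 between AG-221 and its vehicle, 2 for AG-221 against WT and 1 between 5-Aza and WT, and with these libraries added to V3 and V5 they were 2, 12 and 0 for the first 3. Without V1, V3-2 and V5-2, a setting chosen after seeing the data, 2 were called for IDH2-FLT3 vehicle against WT, 3 for AG-221 against WT and 4 for 5-Aza against WT. Leaving out 1 library at a time gave 1 to 4 for IDH2-FLT3 vehicle against WT, 0 to 12 for TET2-FLT3 vehicle against WT, 0 to 7 for AG-221 against vehicle, 0 to 1 for AG-221 against WT, 0 to 21 between the vehicle groups and 0 to 1 for the difference. 5-Aza against vehicle called 0 in every setting run. Rps16 turned sign: for IDH2-FLT3 vehicle against WT its log2 fold change was -0.30 without V3-2 and V5-2, -0.29 without V1 too, and -0.31 to 2.90 with 1 library left out; for 5-Aza against vehicle the same 3 settings gave 0.019, 0.38 and -2.31 to 0.012. Rpl41 was at -0.018 for AG-221 against vehicle with the length trend removed. Of 951 values of single genes under an alternative, 756 kept their direction and side of the threshold, 128 lost a call, 60 gained one and 7 turned. No paired analysis was possible because the columns of the 4 leukemic groups carry no replicate number of the labels. Members at few counts, such as Rps24 and Rps4l outside WT, are limited by depth.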
